A study of Mus musculus with 8 samples.

Results

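The data compared here are 2 libraries of atrioventricular (AV) cushion and 2 libraries of ventricle from wild type C57BL/6 mouse embryos at E12.5, a stage of midgestation, which are 4 of the 8 RNA-seq libraries of the series. They were chosen by their tissue and genotype labels alone, and each group is set against the other across all genes. Total RNA was depleted of ribosomal RNA and made into stranded libraries. The other 4 libraries, 2 of mutant cushion and 2 of mutant ventricle, carry the genotype label NfatC1+/-; KLF2fl/fl and entered the model to estimate the spread between libraries. They also took part in choosing the row of each symbol, in the filter on low counts, in the normalization and in the GC correction. The design text speaks of KLF2 fl/fl mice without an Nfatc1 allele beside Nfatc1 KLF2 fl/fl mice, so the libraries labelled wild type may come from embryos with floxed Klf2 alleles. Nfatc1 is expressed in the endocardium, one of several cell types in either tissue, and the labels do not describe the Nfatc1 allele further. The labels name no embryo or litter for any library and no number of embryos pooled. The p-values therefore measure only the spread between these libraries, which may be technical.

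The AV cushions are swellings of matrix between the atria and the ventricles from which the mitral and tricuspid valves and part of the septum form. They arise where the myocardium of the AV canal secretes BMP2 and other signals and the overlying endocardium answers with an epithelial to mesenchymal transition, sending cells into a hyaluronan-rich jelly. Canonical WNT, BMP, TGF-beta and Notch signals act on these cells, while the neighbouring ventricle builds a compact wall and inner trabeculae of working myocardium.

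After keeping, for each gene symbol, the row with the largest total, the wild type libraries held 21217902 and 22977563 counts from cushion and 20415485 and 18955733 counts from ventricle, so that 1 CPM (counts scaled to the library total) stood for at least 18.7 reads. Pairs of CPM values below are libraries 1 and 2 of a tissue in that order. Of 22869 symbols, 14940 passed the filter on low counts and were tested with edgeR's quasi-likelihood test. A gene is called below where its Benjamini-Hochberg adjusted p over these 14940 genes was at most 0.05. All log2 fold changes are cushion over ventricle. After the ± sign stands a standard error (SE) derived from the test. It is the absolute log2 fold change divided by the square root of the test's F statistic. The first principal component, with 63.0% of the variance, separated the tissues, and the second, with 14.1%, separated the libraries numbered 1 from those numbered 2. The giant sarcomere gene Ttn took 6.48% of the counts in ventricle library 1 and 1.52% in ventricle library 2, against 2.96% and 1.38% in the cushion libraries. Several other genes described below were higher in both libraries numbered 1. Klf2, the gene conditionally targeted in the series, measured 17.3 and 12.9 CPM in cushion and 11.7 and 9.19 CPM in ventricle, and 1.96, 0.651, 0.736 and 0.625 CPM in mutant cushion 1 and 2 and mutant ventricle 1 and 2, so all 4 mutant libraries lay below all 4 wild type libraries.

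A total of 1861 genes were higher in the cushion, 12.46% of the genes tested, and 1591 were higher in the ventricle, 10.65%, so that 23.11% were called in either direction. The cushion side held the larger differences. Among called genes 1039 were at least 2-fold higher in the cushion and 471 at least 2-fold higher in the ventricle, while 448 and 67 differed at least 4-fold, which is 2.999% and 0.4485% of the genes tested. The median log2 fold change was 1.14 among genes called for the cushion and -0.78 among those called for the ventricle, beside 0.01 over all genes tested. In bulk tissue fewer cells of a type and less RNA per cell cannot be told apart, which holds for every difference given here.

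The number of calls moved with single libraries. Left out one at a time, the 4 wild type libraries gave totals that differed by over 1.5 times from the 3452 above. The total was 1414 without cushion library 1, 1334 without cushion library 2, 2246 without ventricle library 1 and 739 without ventricle library 2. A core of 661 genes (441 higher in cushion, 220 higher in ventricle) kept their call in all 4 of these fits. Below, an asterisk marks a called value whose call was lost in at least 1 of these fits. Where a gene's adjusted p is printed, the adjusted p of each fit that ended its call follows. The leave-out series of a gene list gives how many of its members were called without cushion library 1, cushion library 2, ventricle library 1 and ventricle library 2, in that order. With a term for the replicate number, whose meaning no label gives, 3171 genes were called for the cushion and 3009 for the ventricle. Some genes given below as not called passed in that fit, among them Sox9, Vcan and Col3a1, as the closing section lists. The fold changes also followed transcript GC content (Spearman rho 0.385 across genes, which are not independent replicates): the median transcript GC was 53.3% among genes higher in the cushion, 44.7% among those higher in the ventricle and 49.6% over all genes. A fit corrected for GC content and length called 1548 genes for the cushion and 2071 for the ventricle, so the share of calls on the cushion side was 42.8% in place of 53.9%, with a median over all genes of -0.08. Where that correction moved a list's number of calls in a direction by over 1.5 times and by at least 2 genes, its counts for cushion and ventricle follow the series as GC-corrected counts. List medians that moved by over 1.5 times and by at least 0.1 follow in the same way, from the fits without a library (leave-out medians) or with the correction (GC-corrected median).

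**Figure D1:**
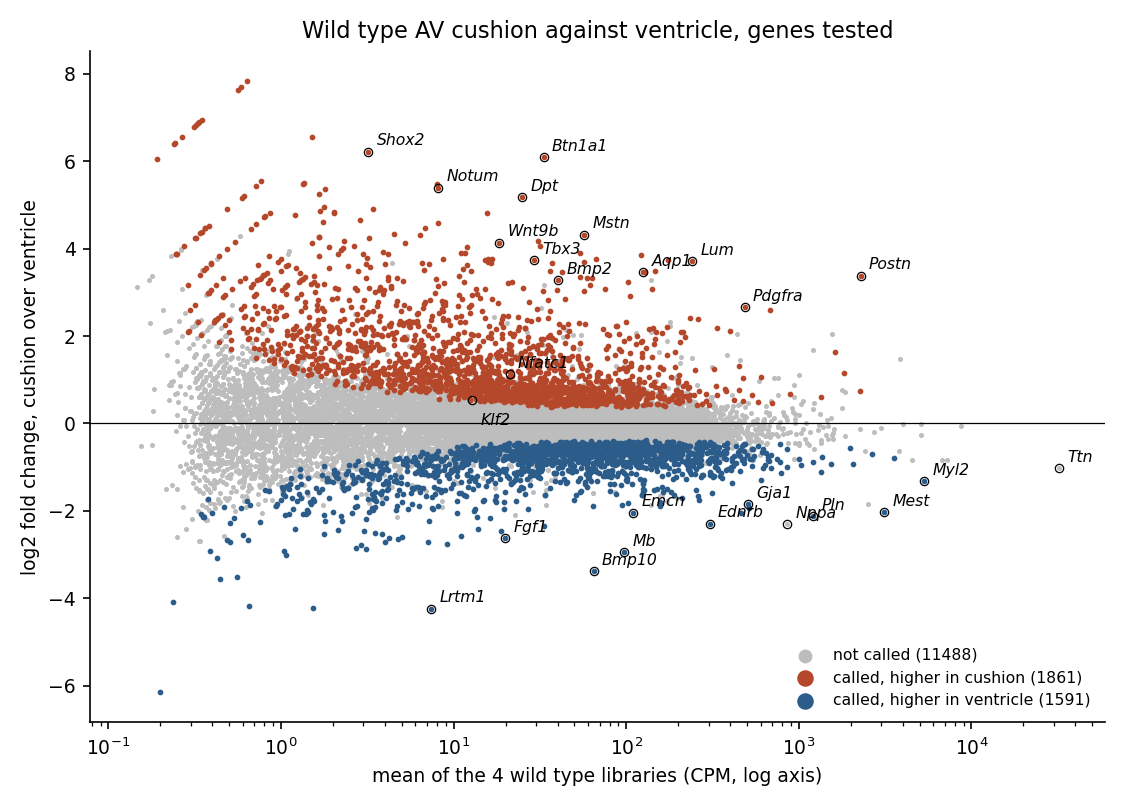
Each point is 1 of the 14940 genes tested: the mean level over the 4 wild type libraries (CPM, log axis) against the log2 fold change of cushion over ventricle, red where called higher in the cushion, blue where called higher in the ventricle and grey where not called. The called cushion genes reach higher on the axis than the called ventricle genes reach down, and Klf2, Nfatc1, Nppa and Ttn are labelled but were not called.

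More markers of each tissue were called for it than for the other tissue. These lists were chosen with earlier results of these data known, so the counts are a description. Of 23 markers of cushion mesenchyme 18 were higher in the cushion and none in the ventricle, with a median log2 fold change of 2.83 (leave-out series 13, 13, 16 and 9). Among 26 markers of ventricular chamber myocardium 12 were higher in the ventricle and 2 in the cushion, with a median of -0.90 (leave-out series 5, 4, 5 and 5 for the ventricle). Markers of each tissue were also counted in the other. The ventricular markers summed to 13460 and 10800 CPM in cushion and 27430 and 25020 CPM in ventricle, and the mesenchymal markers summed to 12540 and 7937 CPM in cushion and 3899 and 1779 CPM in ventricle. Fn1 and Tbx20, which were not called, made up most of the mesenchymal sum in ventricle. How far cells of the other tissue entered each dissection was not tested.

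The highest fold changes in either direction are ranked among called genes with separated tissues and a mean of at least 5 CPM in the higher tissue. Predicted genes and small RNAs were left out. On the cushion side the highest belonged to a mixed group of genes. Shox2, a homeobox factor of the sinus node and venous pole, stood at 3.43 and 9.22 CPM in cushion and 0.107 and 0.0528 CPM in ventricle. Its ventricle values rest on 3 reads in all, which gives a ratio of CPM of 82.4 (95% counting interval 27.9 to 402). Dpt, which encodes the matrix protein dermatopontin, measured 55.0 and 41.9 CPM in cushion and 1.28 and 1.37 CPM in ventricle, a log2 fold change of 5.18 ± 0.22 (adjusted p = 4.75e-05). Both cushion libraries lay above both ventricle libraries for each of these genes, as the ranking required. Btn1a1, a butyrophilin, was at 76.3 and 54.5 against 1.34 and 0.581 CPM, with a log2 fold change of 6.08 ± 0.35 (adjusted p = 0.000179). Notum, a secreted lipase that removes the lipid from WNT proteins, was at 17.0 and 14.8 against 0.534 and 0.211 CPM, with 5.39 ± 0.39 (adjusted p = 0.000309). Mstn, which encodes the TGF-beta family member myostatin, measured 134 and 84.1 CPM in cushion and 6.79 and 4.12 CPM in ventricle, with 4.32 ± 0.45 (adjusted p = 0.00208). Shox2, Btn1a1, Dpt, Notum and Mstn kept their calls whichever wild type library was left out.

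The remaining genes among the 20 with the highest fold changes towards the cushion fell into recognisable kinds. Matrix proteins were Matn4 5.49, Prelp 4.91 and Col9a3 4.06. Genes best known from neurons were Tubb3 4.81, Syt15 4.65, Dpysl4 4.59, Grm7 4.46, Ntrk2 4.33*, Vsnl1 4.25* and Nptx1 4.13. Tubb3 encodes a neuronal beta-tubulin, Grm7 a metabotropic glutamate receptor and Ntrk2 the receptor of brain-derived neurotrophic factor. Tubb3 measured 31.4 and 28.8 CPM in cushion and 1.5 and 0.634 CPM in ventricle. The others were Serinc2 4.31, Tmem132c 4.17, Wnt9b 4.13, Enpp2 4.04 and Cldn11 3.93. Enpp2 encodes autotaxin, the enzyme that makes lysophosphatidic acid, and Cldn11 a tight junction claudin. Separation between the tissues was a condition of this ranking, so it is not a result for these genes. The log2 values run from 3.93 to 5.49.

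Towards the ventricle the highest fold change belonged to Lrtm1, a leucine-rich transmembrane protein, at 0.986 and 0.514 CPM in cushion and 13.0 and 15.0 CPM in ventricle, a log2 fold change of -4.24 ± 0.55 (adjusted p = 0.00297). Bmp10, a ligand of the trabecular myocardium, stood at 11.6 and 11.0 CPM in cushion and 132 and 104 CPM in ventricle, with -3.38 ± 0.70 (adjusted p = 0.0226; 0.139 without cushion library 1, 0.14 without cushion library 2 and 0.0548 without ventricle library 2). Mb, which encodes the oxygen carrier myoglobin, measured 19.4 and 25.7 CPM in cushion and 153 and 192 CPM in ventricle, with -2.94 ± 0.45 (adjusted p = 0.0081; 0.0654 without cushion library 1 and 0.0542 without cushion library 2). Both ventricle libraries lay above both cushion libraries for all of these, as the ranking required. Fgf1, a fibroblast growth factor without a signal peptide, measured 6.01 and 5.07 CPM in cushion and 30.8 and 37.4 CPM in ventricle, with -2.62 ± 0.18 (adjusted p = 0.000232). Ednrb, an endothelin receptor, measured 91.9 and 115 against 479 and 531 CPM, with -2.29 ± 0.33 (adjusted p = 0.00424). The other genes among the 20 with the highest fold changes towards the ventricle were Slc1a1 -2.77*, Tmem88b -2.76, Yipf7 -2.72*, Fam46d -2.70, Mal -2.63*, Hs3st4 -2.62*, Phactr3 -2.60*, Tmem100 -2.58, Klf14 -2.53*, Wdr72 -2.50, Tnni2 -2.46, Prr15 -2.42, Tmem71 -2.35, Myo5c -2.18* and Acss1 -2.17. Slc1a1 encodes a glutamate transporter, Tnni2 the fast skeletal troponin I, Tmem100 a transmembrane protein of endothelium and Acss1 a mitochondrial acetyl-CoA synthetase.

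**Figure D2:**
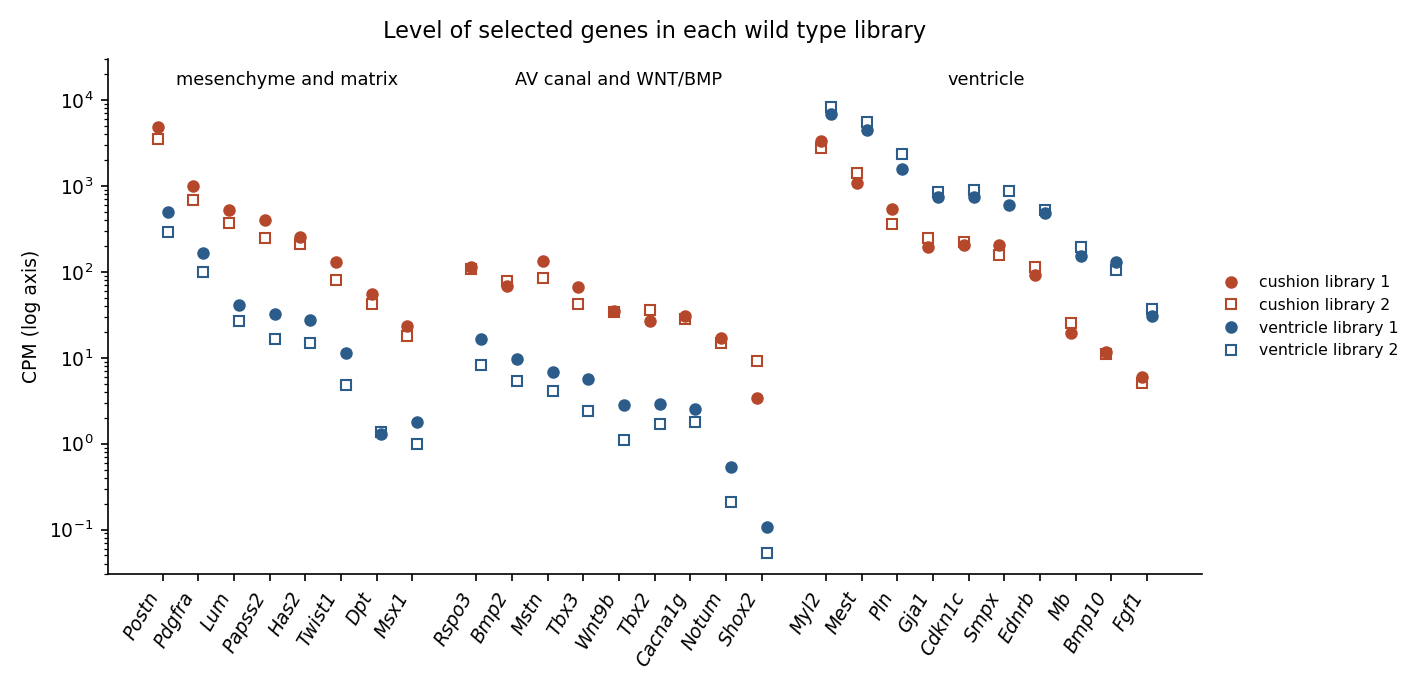
Levels of selected genes in each wild type library (CPM, log axis): red for cushion, blue for ventricle, filled circles for library 1 and open squares for library 2. In each gene shown the 2 libraries of one tissue lie on the same side of both libraries of the other.

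Genes of the cushion mesenchyme had the same direction with few exceptions. Postn, the matricellular protein periostin that valve precursor cells secrete, measured 4832 and 3482 CPM in cushion and 504 and 294 CPM in ventricle, a log2 fold change of 3.38 ± 0.40 (adjusted p = 0.00206). Pdgfra, a receptor of platelet-derived growth factor on mesenchyme, measured 994 and 678 CPM in cushion and 167 and 99.1 CPM in ventricle, with 2.65 ± 0.42 (adjusted p = 0.00774; 0.053 without ventricle library 2). Lum, the keratan sulfate proteoglycan lumican, measured 518 and 373 CPM in cushion and 41.0 and 27.1 CPM in ventricle, with 3.71 ± 0.49 (adjusted p = 0.00507). The 2 tissues did not overlap for these genes, and library 1 was higher than library 2 in both tissues. Further called markers were Msx1 3.90, Papss2 3.73*, Twist1 3.70*, Snai1 3.64*, Meox1 3.35*, Nfatc4 3.11, Scx 3.09, Prrx1 3.02*, Sox5 2.83, Msx2 2.63, Tcf21 1.82, Snai2 1.73*, Bmp4 1.67*, Prrx2 1.34* and Sox4 1.22. Papss2 makes the sulfate donor used for proteoglycans, and most of the others are transcription factors of mesenchyme or of the epithelial to mesenchymal transition.

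The mesenchymal markers that were not called included well known ones. Sox9, a factor required for cushion mesenchyme to expand, measured 89.3 and 30.3 CPM in cushion and 8.87 and 4.33 CPM in ventricle, with a log2 fold change of 3.18 ± 0.88 (adjusted p = 0.0503). Tbx20, a T-box factor of endocardium and myocardium, measured 1699 and 1027 CPM in cushion and 770.5 and 494 CPM in ventricle, with 1.11 ± 0.42 (adjusted p = 0.1). Fn1, fibronectin, measured 3107 and 1348 CPM in cushion and 2075 and 566 CPM in ventricle, with 0.76 ± 0.88 (adjusted p = 0.573). For Sox9 and Tbx20 the tissues were still separated, while the fibronectin values of cushion library 2 lay below those of ventricle library 1. Sox6 (1.01) was not called either, and Dcn, the proteoglycan decorin, was the only one of the 23 markers with a negative value (-0.26, adjusted p = 0.274).

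Transcription factors of the epithelial to mesenchymal transition and of mesenchyme gave 14 of 25 tested members higher in the cushion and none higher in the ventricle, with a median of 1.73 (leave-out series 8, 8, 10 and 3, GC-corrected counts 15 and 2). Msx1, a homeobox factor downstream of BMP, measured 23.2 and 18.1 CPM in cushion and 1.76 and 1.0 CPM in ventricle, with 3.90 ± 0.33 (adjusted p = 0.000486). Twist1, a basic helix-loop-helix factor, measured 132 and 80.1 CPM in cushion and 11.5 and 4.86 CPM in ventricle, with 3.70 ± 0.65 (adjusted p = 0.014; 0.0763 without cushion library 1 and 0.0566 without ventricle library 2). Snai1 and Snai2, the zinc finger repressors of E-cadherin, gave 3.64 ± 0.81 and 1.73 ± 0.31 (adjusted p = 0.02 and 0.00729; for Snai1 0.0837 without cushion library 1, 0.0731 without cushion library 2 and 0.0731 without ventricle library 2; for Snai2 0.0619 without ventricle library 2). Osr1 (4.87*), Mecom (2.07*), Heyl (1.74*) and Zeb2 (0.62*) were also higher in the cushion. The related Zeb1 had 0.17 (adjusted p = 0.344). Foxc1 and Foxc2, forkhead factors of cushion and vessels, had -0.44 and -0.24 (adjusted p = 0.326 and 0.569). The antisense transcript of Msx1 (3.89) had nearly the value of its partner, and since the strand setting of the counting is not given in the sources used here reads of the pair cannot be told apart.

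By family, 6 of 16 Sox factors were higher in the cushion and 1 in the ventricle (leave-out series 5, 6, 5 and 4 for the cushion). Of 9 T-box factors 4 (leave-out series 3, 2, 4 and 2) and of 6 GATA factors 3 (leave-out series 1, 2, 2 and 1, GC-corrected counts 1 and 0) were higher in the cushion, and none was called for the ventricle. The 3 families had medians of 1.04, 0.91 and 0.84. The GATA median was 0.42 after GC and length correction, and the Sox median 0.56, 1.24, 1.24 and 0.80 in the 4 fits without a library. Gata5, a factor of endocardial cells, gave 1.65 ± 0.26 (adjusted p = 0.00424) and Gata4 0.77 ± 0.18 (adjusted p = 0.0205; 0.101 without cushion library 1, 0.0564 without cushion library 2 and 0.148 without ventricle library 2). All 6 Iroquois homeobox factors had negative values, 4 of them called (Irx4 -0.64*, Irx3 -1.33*, Irx5 -1.88 and Irx6 -2.02), with a median of -1.24 (leave-out series 4, 2, 2 and 2, leave-out medians -1.78, -0.82, -1.32 and -1.16). Sox3, a factor best known from the neural tube and pituitary, went against the other called Sox factors at 0.188 and 0.119 CPM in cushion and 3.15 and 2.64 CPM in ventricle, with -4.21 ± 0.48 (adjusted p = 0.00114), a low level in either tissue. The Hox gene Hoxb9 was counted in 33 reads from cushion and in none from ventricle. With the ventricle set to a floor of 3 reads over the group, its ratio of CPM was 8.89. The counting interval of the ratio without that floor began at 6.83 and had no upper limit.

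In each class of matrix genes described here more members were called for the cushion than for the ventricle. Of the small leucine-rich proteoglycans and matricellular proteins 17 of 32 were higher in the cushion and 3 in the ventricle (median 1.46, leave-out series 11, 11, 14 and 8 for the cushion). Besides Dpt, Postn and Lum, these were led by Prelp 4.91, Thbs1 2.60*, Edil3 2.17*, Mgp 2.11, Tgfbi 2.09*, Thbs2 2.02 and Bgn 1.96*. Thbs1 and Thbs2 encode thrombospondins, Mgp the calcification inhibitor matrix Gla protein and Bgn biglycan. The 3 members higher in the ventricle were Ogn -1.47, Smoc1 -1.64 and Thbs4 -0.62*. Ogn, osteoglycin, measured 10.6 and 16.0 CPM in cushion and 31.6 and 42.4 CPM in ventricle. Sparc, a collagen-binding protein of most mesenchyme, had 0.19 ± 0.15 (adjusted p = 0.385).

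Of 38 collagen genes tested 15 were higher in the cushion and 3 in the ventricle (median 1.39). The collagen IX chains, partners of cartilage fibrils, gave Col9a1 3.76*, Col9a2 2.02 and Col9a3 4.06. Col9a3 measured 71.5 and 48.2 CPM in cushion and 4.81 and 2.38 CPM in ventricle. The collagen VI chains Col6a1 1.78, Col6a2 1.54 and Col6a6 2.46* and the basement membrane chains Col4a3 2.69* and Col4a4 2.23* were also called. Of the fibril-forming chains Col24a1 1.85*, Col27a1 1.61, Col11a1 1.48* and Col5a2 1.06* were called. Col1a1, Col1a2 and Col3a1 had 2.06 ± 0.79, 1.56 ± 0.61 and 2.05 ± 0.63 without being called (adjusted p = 0.112, 0.121 and 0.0654). For each the lower cushion library was above the higher ventricle library. Col3a1 measured 3217 and 1785 CPM in cushion and 797 and 409 CPM in ventricle, with library 1 above library 2 in both tissues. Col4a1 and Col4a2, the ubiquitous basement membrane chains, had -0.14 and -0.15 (adjusted p = 0.775 and 0.824). Higher in the ventricle were Col23a1 -1.57*, Col8a1 -0.95* and Col25a1 -0.74*. Leaving out single libraries gave 10, 10, 13 and 6 collagens called for the cushion and medians of 1.0, 1.40, 1.82 and 0.98.

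The enzymes that fold and crosslink collagen followed with 16 of 31 higher in the cushion and 1 in the ventricle, at smaller values (median 0.68, leave-out series 3, 11, 6 and 2 for the cushion). The median was 0.42 after GC and length correction. They included the N-propeptidase Adamts2 (2.83*), the C-propeptidase Bmp1 (1.69*), the collagen chaperone Fkbp10 (1.08), the lysyl hydroxylase Plod1 (1.02*), the lysyl oxidase relative Loxl2 (1.05*) and the prolyl hydroxylase subunits P4ha1, P4ha2 and P4hb (0.66*, 0.79* and 0.68*). Serpinh1, the collagen-specific chaperone HSP47, was not called (0.39 ± 0.16, adjusted p = 0.105).

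Elastic fibre genes had a high median of 1.45 with 8 of 24 members higher in the cushion and none in the ventricle (leave-out series 5, 5, 7 and 4). Called members were Ltbp2 3.11*, Mfap4 3.05, Fbln2 2.40*, Mfap2 2.07, Efemp2 1.90, Emilin1 1.56*, Fbln1 1.43 and Loxl2 1.05*. Fbln1 and Fbln2 encode fibulins and Mfap2 and Mfap4 microfibril-associated proteins. Eln itself, elastin, measured 74.6 and 36.4 CPM in cushion and 13.4 and 4.49 CPM in ventricle, with 2.63 ± 1.49 (adjusted p = 0.251). Fbn1 and Fbn2, the fibrillins, had 1.04 ± 0.96 and 1.69 ± 0.85 (adjusted p = 0.474 and 0.204). The elastin tissues were separated, but library 1 exceeded library 2 in both. The median was 0.85, 1.68, 1.86 and 1.18 in the 4 fits without a library.

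Hyaluronan is the main glycan of the cushion jelly. Has2, the hyaluronan synthase required for cushion formation, measured 256 and 213 CPM in cushion and 27.6 and 14.9 CPM in ventricle, with 3.46 ± 0.68 (adjusted p = 0.0196; 0.0972 without cushion library 1, 0.0779 without cushion library 2 and 0.0849 without ventricle library 2). Its antisense transcript shares the strand uncertainty given for Msx1. Ugdh, which makes the precursor UDP-glucuronic acid, gave 1.51 ± 0.13 (adjusted p = 0.000501). Hapln1, the link protein that ties hyaluronan to versican, gave 2.42 ± 0.61 (adjusted p = 0.0389; 0.165 without cushion library 1, 0.106 without cushion library 2, 0.0742 without ventricle library 1 and 0.144 without ventricle library 2). Vcan, versican, was not called at 8625 and 2688 CPM in cushion and 3023 and 1058 CPM in ventricle, with 1.47 ± 0.90 (adjusted p = 0.285). Ventricle library 1 was above cushion library 2, while within each library number the cushion was higher. In all 7 of 20 members were higher in the cushion and 1, the motility receptor and mitotic gene Hmmr (-0.74*), in the ventricle, with a median of 0.47 (leave-out series 3, 4, 5 and 3 for the cushion, leave-out medians 0.44, 0.54, 0.54 and 0.76, GC-corrected median 0.26). Enzymes that sulfate and build the glycan chains of proteoglycans gave 15 of 30 higher in the cushion, among them Papss2 3.73*, Chst3 3.37, Ndst3 2.56, Hs3st1 2.34, Xylt1 1.44* and Chsy1 1.23. The 2 higher in the ventricle were Hs3st4 -2.62* and Ndst4 -1.56*. The median was 0.68, which was 0.39 after GC and length correction (leave-out series 8, 9, 11 and 7 for the cushion).

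Genes of the cartilage and tendon program, parts of which valve precursors share, gave 13 of 32 members higher in the cushion and 1 in the ventricle (median 1.25, leave-out series 8, 9, 9 and 7 for the cushion). Gdf5, a joint-forming BMP relative, was counted in 29 cushion reads and in no ventricle read. With the ventricle set to a floor of 3 reads over the group, its ratio of CPM was 7.81. The counting interval of the ratio without that floor began at 5.96 and had no upper limit. Other members higher in the cushion included Matn4, the parathyroid hormone-related peptide gene Pthlh (3.88), Scx, the tendon factor scleraxis, and Sox5. Acan, aggrecan, and Col2a1, the main cartilage collagen, were not called (-0.20 and 0.78, adjusted p = 0.919 and 0.521). Col2a1 measured 102 and 47.8 CPM in cushion and 64.7 and 22.0 CPM in ventricle.

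Matrix proteases and their inhibitors gave 20 of 37 higher in the cushion and 1, Adamts6 (-0.69*), in the ventricle (median 0.87, leave-out series 11, 11, 17 and 10 for the cushion, GC-corrected counts 19 and 3). Mmp2, gelatinase A, measured 386 and 286 CPM in cushion and 86.1 and 70.8 CPM in ventricle, with 2.10 ± 0.25 (adjusted p = 0.00167). Mmp14, its membrane-bound activator, gave 1.56 ± 0.25 (adjusted p = 0.00482; 0.0562 without ventricle library 2). Of the versican-cleaving enzymes Adamts15, Adamts20 and Adamts4 were higher in the cushion (2.04*, 2.40 and 1.26*). Adamts1, Adamts5 and Adamts9 were not called (0.30, 0.25 and -0.50). Of 20 serpins 10 were higher in the cushion and none in the ventricle, with a median of 0.85 (leave-out series 7, 7, 7 and 6). Among them were Serpinf1, which encodes pigment epithelium-derived factor (2.45), and Serpine2, protease nexin-1 (0.93). Serpina3n rested on 142 cushion reads and 1 ventricle read, a ratio of CPM of 115 (95% counting interval 20.3 to 4570).

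Cell-matrix receptors and basement membrane genes were closer to background, with 10 of 44 higher in the cushion and 1 in the ventricle (leave-out series 5, 9, 9 and 2 for the cushion, GC-corrected counts 11 and 3). Their median of 0.39 was -0.01 after GC and length correction and 0.17, 0.46, 1.0 and -0.07 in the 4 fits without a library, so it had no stable sign. Called receptors were Itga4 2.32*, Itga8 1.88, Itgb8 1.42*, Itgb5 1.24 and Itga9 0.88*, while the common beta subunit Itgb1 had -0.13 ± 0.15 (adjusted p = 0.561).

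**Figure D3:**
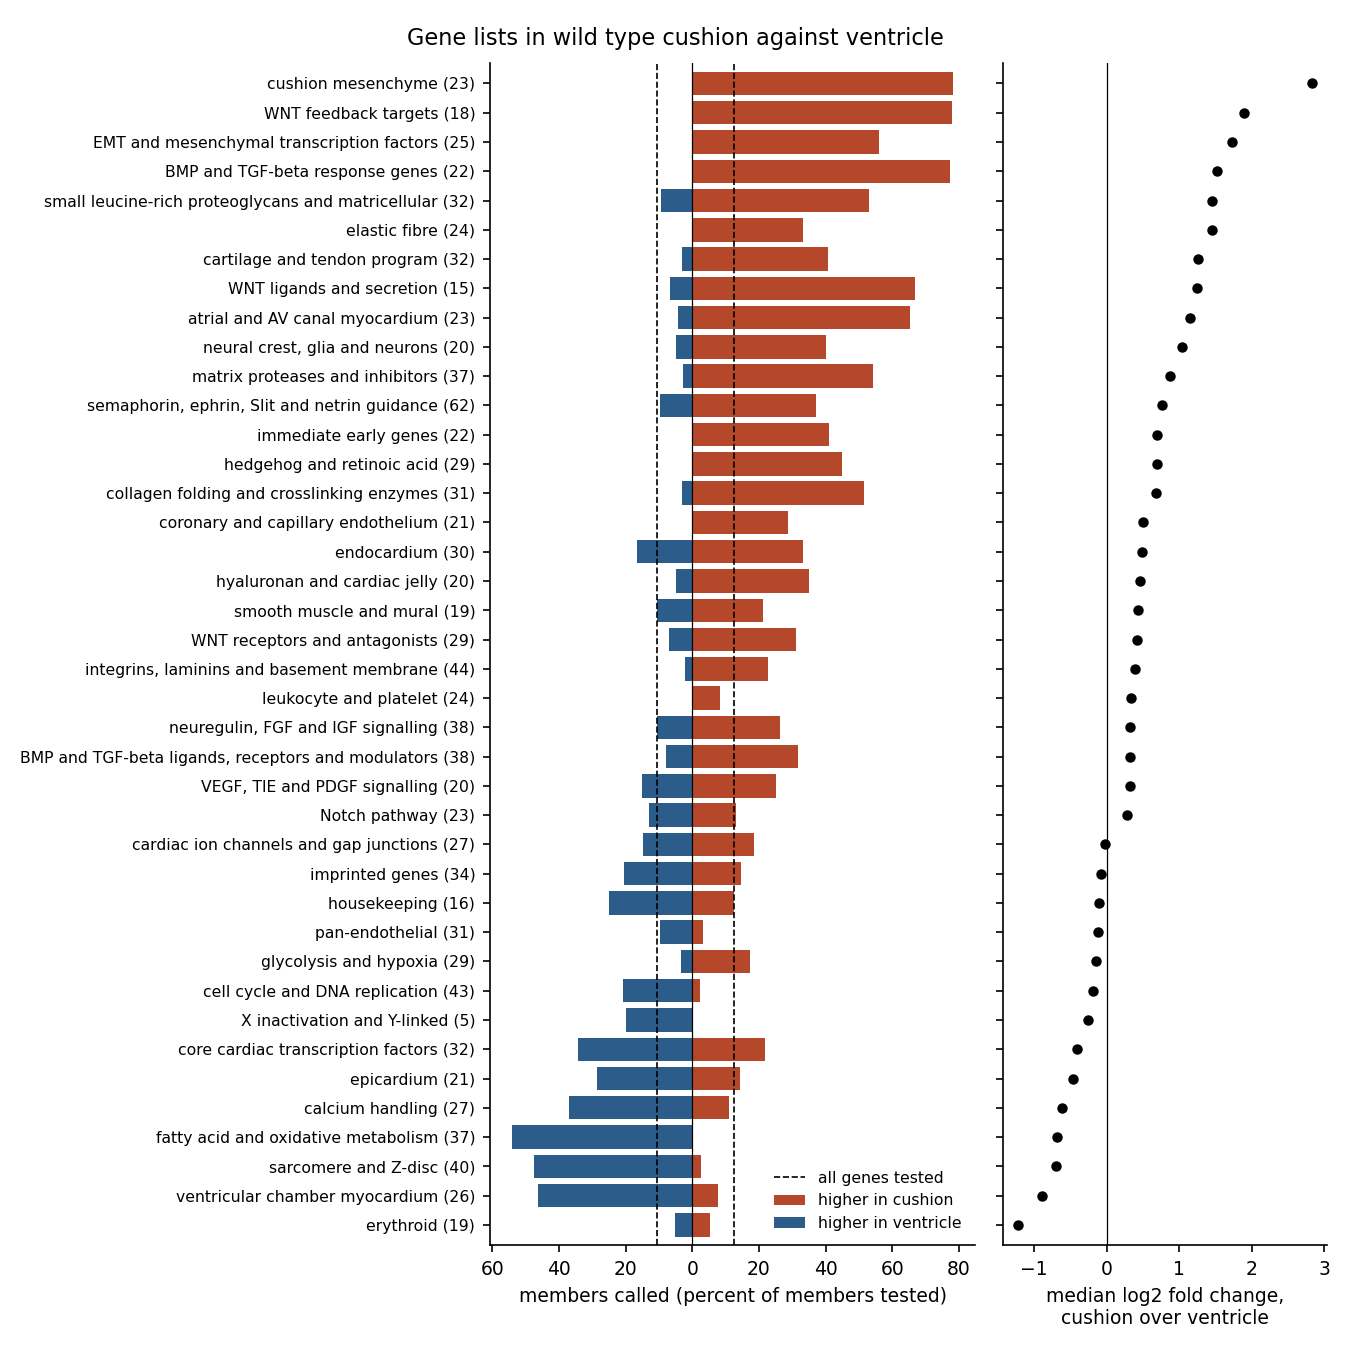
For each of the gene lists (members tested in brackets), bars give the percent of members called higher in the cushion (right, red) or in the ventricle (left, blue), dashed lines the 12.46% and 10.65% of all genes tested, and points the median log2 fold change. Lists of mesenchyme, WNT targets and BMP response stand at the top and those of contractile and oxidative genes near the bottom.

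WNT genes are given by their step in the pathway. Among ligands and secretion factors 10 of 15 tested were higher in the cushion and 1 in the ventricle (median 1.24, leave-out series 7, 6, 8 and 4 for the cushion, GC-corrected counts 9 and 3). Wnt9b, a ligand of the cushion endocardium, measured 34.9 and 34.4 CPM in cushion and 2.83 and 1.11 CPM in ventricle, with 4.13 ± 0.36 (adjusted p = 0.000545). Rspo3, an R-spondin that amplifies WNT reception, measured 112 and 109 CPM in cushion and 16.4 and 8.18 CPM in ventricle, with 3.17 ± 0.56 (adjusted p = 0.0143; 0.0721 without cushion library 1, 0.0681 without cushion library 2 and 0.06 without ventricle library 2). Wnt4 and Wnt2 gave 2.71 ± 0.28 and 2.71 ± 0.30 (adjusted p = 0.000824 and 0.001). The other called ligands and the acyltransferase Porcn were Wnt16 2.71, Wnt7a 3.08*, Rspo2 2.10*, Porcn 1.24*, Wnt11 1.19* and Wnt5b 0.84*. Both cushion libraries exceeded both ventricle libraries for all of these. Wnt2b was higher in the ventricle (-1.17 ± 0.23, adjusted p = 0.0104; 0.0619 without cushion library 1 and 0.0641 without ventricle library 2). Wnt5a, a ligand of the planar polarity branch, had a negative value without a call at 54.0 and 39.8 against 85.7 and 73.2 CPM (-0.76 ± 0.26, adjusted p = 0.0713). Wls, the carrier that brings WNT proteins to the surface, had -0.21 (adjusted p = 0.296).

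Receptors and antagonists of the pathway were more mixed, with 9 of 29 higher in the cushion, 2 higher in the ventricle and a median of 0.42 (leave-out series 4, 5, 6 and 2 for the cushion, GC-corrected counts 8 and 5). Towards the cushion were the antagonists Dkk2 3.14, Frzb 2.07* and Dkk3 0.59* and the receptors Fzd10 3.04*, Fzd7 2.20, Fzd1 1.28*, Lrp5 1.16* and Fzd2 0.94*. The R-spondin receptor Lgr4 and the Frizzled Fzd5 were higher in the ventricle (-0.95 ± 0.16 and -0.78 ± 0.17, adjusted p = 0.00534 and 0.0138; for Lgr4 0.0525 without ventricle library 2; for Fzd5 0.0818 without cushion library 1, 0.0572 without cushion library 2, 0.0522 without ventricle library 1 and 0.076 without ventricle library 2).

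Genes that canonical WNT signalling is known to induce gave 14 of 18 higher in the cushion and none in the ventricle, with a median of 1.89 (leave-out series 10, 8, 8 and 6). Axin2, a scaffold of the beta-catenin destruction complex, measured 23.1 and 25.2 CPM in cushion and 3.26 and 2.48 CPM in ventricle, with 3.07 ± 0.23 (adjusted p = 0.000309). Lef1, a transcriptional partner of beta-catenin, measured 22.4 and 18.9 CPM in cushion and 2.99 and 1.37 CPM in ventricle, with 3.24 ± 0.36 (adjusted p = 0.0011). Apcdd1, a membrane inhibitor of the pathway, measured 117 and 97.0 CPM in cushion and 12 and 9.24 CPM in ventricle, with 3.33 ± 0.21 (adjusted p = 0.000179). No library of one tissue overlapped the other for these feedback genes. The ubiquitin ligase Rnf43 (4.03) and the inhibitor Nkd1 (1.97) followed. Smaller values belonged to Tcf7 1.42*, Myc 0.82*, Nkd2 0.71*, Ccnd1 0.51* and Znrf3 0.50*. Wif1 and Kremen1 were not called (-0.39 and -0.41). Notum, Axin2, Lef1, Apcdd1, Rnf43 and Nkd1 kept their calls without any 1 of the wild type libraries.

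Signals of the BMP and TGF-beta family were led by Bmp2, the AV canal ligand that starts the transition, at 67.9 and 78.3 CPM in cushion and 9.62 and 5.39 CPM in ventricle, with 3.28 ± 0.41 (adjusted p = 0.00328). Of 38 ligands, receptors and modulators 12 were higher in the cushion and 3 in the ventricle (median 0.32, leave-out series 9, 10, 9 and 6 for the cushion). Ligands towards the cushion were Mstn 4.32, Bmp2 3.28, Inhba 2.24*, Bmp6 1.96, Tgfb3 1.67, Bmp4 1.67*, Tgfb2 1.01* and Gdf11 0.70*. Secreted modulators included Bmper 3.02, Fst 2.84 and Chrd 2.46*. The 3 genes higher in the ventricle were the ligand Bmp10 and the receptors Bmpr1b -1.96 and Tgfbr3 -1.82*. Tgfbr3, the betaglycan co-receptor, measured 57.0 and 32.8 CPM in cushion and 190.4 and 127 CPM in ventricle, with -1.82 ± 0.36 (adjusted p = 0.0148; 0.0563 without cushion library 2). Main receptors did not pass the test: Bmpr1a had -0.16, Bmpr2 0.09, Tgfbr1 0.28, Tgfbr2 0.27 and Acvr1 0.20. Neither did the ligands Bmp5 and Bmp7 (-0.47 and -0.27). The median of these ligands, receptors and modulators was 0.38, 0.40, 0.73 and 0.30 in the 4 fits without a library.

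Response genes of the BMP and TGF-beta pathways shared one direction where called, with 17 of 22 higher in the cushion, none in the ventricle and a median of 1.52 (leave-out series 12, 13, 16 and 11). Id1 and Id3, inhibitors of basic helix-loop-helix factors, gave 1.87 ± 0.16 and 2.21 ± 0.21 (adjusted p = 0.000501 and 0.000625). Id3 measured 63.2 and 79.0 CPM in cushion and 14.9 and 15.8 CPM in ventricle. Smad6, an inhibitory SMAD, measured 55.8 and 67.7 CPM in cushion and 21.2 and 20.8 CPM in ventricle, with 1.56 ± 0.17 (adjusted p = 0.000964). Both cushion libraries were above both ventricle libraries for these as well. The others called included Msx1 3.90, Tbx2 3.77, Msx2 2.63, Tgfbi 2.09*, Atoh8 1.85, Smad9 1.84, Smad7 1.49, Id4 1.27*, Bambi 1.12, Id2 1.11, Skil 0.99*, Gata4 0.77* and Smurf1 0.54*. Ctgf, a common TGF-beta and YAP target, had -0.56 ± 0.29 (adjusted p = 0.205). Several members stand on more than one list, such as Msx1, Msx2 and Sox9 with the mesenchymal markers and Tbx2 with the AV canal genes.

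**Figure D4:**
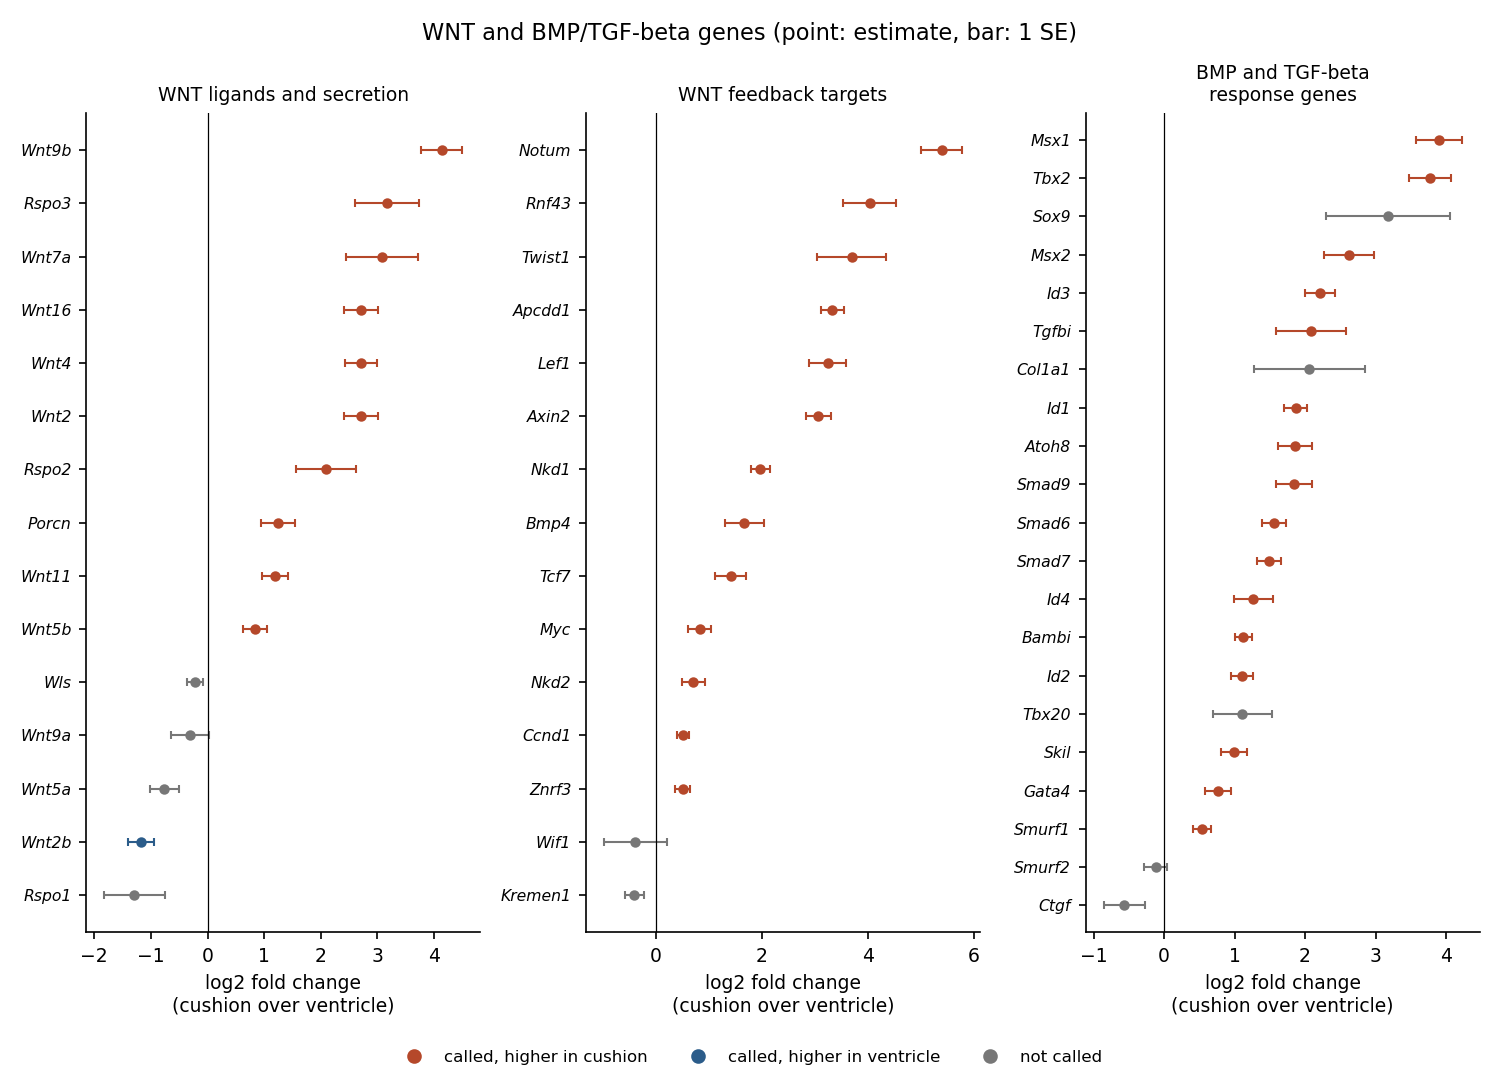
Log2 fold change of cushion over ventricle for members of 3 lists with a mean of at least 1 CPM in one tissue, where points are estimates, bars 1 SE, red called higher in the cushion, blue called higher in the ventricle and grey not called. Most ligands, targets and response genes lie to the right of 0, and Wnt2b is the one blue point.

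Promoter sequence is shown for 1 called member of the WNT target list and 1 of the BMP response list, because each holds letters that match the element read by the factors of its pathway. The 250 bases before the RefSeq start (mouse build GRCm38.p6, whereas the authors' counts were made on mm9) were searched on both strands in the 10373 tested genes that have an entry. The TCF/LEF letters CTTTGAT were found in 2.15% of all 10373 promoters, in 2.31% of those of genes higher in the cushion and in 1.44% of those higher in the ventricle. Of 11 WNT targets with an entry, Sp5 held them, starting 104 bases before its start. The palindrome GGCGCC, the core of a BMP response element, is common, with 16.5% of all promoters and 5 of 12 response genes, among them Smad9 at 51 bases before its start. It was in 17.2% of the promoters of genes higher in the cushion and in 17.5% of those higher in the ventricle. Sp5, a zinc finger WNT target, was counted in few reads, with a ratio of CPM of 14.1 (95% counting interval 3.63 to 121). Smad9 measured 29.1 and 25.4 CPM in cushion and 8.29 and 6.92 CPM in ventricle, with 1.84 ± 0.25 (adjusted p = 0.00247). Capitals mark the TCF/LEF letters in Sp5 and the palindrome in Smad9.
Sp5 (chr2:70474673-70474922, plus strand): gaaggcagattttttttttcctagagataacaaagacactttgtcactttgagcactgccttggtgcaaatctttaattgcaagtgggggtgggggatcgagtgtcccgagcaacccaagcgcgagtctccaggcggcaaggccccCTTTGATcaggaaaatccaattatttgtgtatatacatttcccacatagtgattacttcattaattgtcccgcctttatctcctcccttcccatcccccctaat
Smad9 (chr3:54755332-54755581, plus strand): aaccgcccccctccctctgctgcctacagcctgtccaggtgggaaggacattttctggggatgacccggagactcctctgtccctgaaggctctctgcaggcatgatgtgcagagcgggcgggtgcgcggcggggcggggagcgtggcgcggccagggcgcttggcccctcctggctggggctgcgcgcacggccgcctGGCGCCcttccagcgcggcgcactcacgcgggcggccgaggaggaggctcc

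Notch genes did not lean one way. Of 23 tested 3 were higher in the cushion (Heyl 1.74*, Notch3 1.72* and Hey1 0.69*) and 3 in the ventricle (Hey2 -1.39, Dlk1 -1.37* and Dll1 -0.74*; leave-out series 1, 1, 2 and 0 for the cushion and 2, 2, 1 and 1 for the ventricle, leave-out medians 0.40, 0.32, 0.44 and 0.26). The calls in each direction were 13.0% of the Notch genes, near the 12.46% and 10.65% of all genes tested. The median of 0.28 became -0.05 after GC and length correction. Notch1, the endocardial receptor, measured 116 and 67.0 CPM in cushion and 70.5 and 25.1 CPM in ventricle, with 0.94 ± 0.64 (adjusted p = 0.335). Its ventricle library 1 lay above cushion library 2. Hey2, a Notch-related repressor of the compact ventricular wall, measured 75.5 and 62.8 CPM in cushion and 154 and 207 CPM in ventricle, with -1.39 ± 0.17 (adjusted p = 0.00177). Hey1, its AV canal and atrial relative, measured 14 and 16.6 against 9.19 and 9.82 CPM, with 0.69 ± 0.20 (adjusted p = 0.041; 0.0746 without cushion library 1, 0.197 without cushion library 2, 0.137 without ventricle library 1 and 0.153 without ventricle library 2). The 2 related factors were thus called in opposite directions.

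Growth factor signalling through neuregulin, FGF and IGF gave 10 of 38 members higher in the cushion and 4 in the ventricle (median 0.33, leave-out series 7, 7, 7 and 5 for the cushion and 3, 1, 1 and 2 for the ventricle, GC-corrected counts 10 and 10). All 4 FGF receptor genes were higher in the cushion (Fgfr1 0.97*, Fgfr2 3.08, Fgfr3 1.79 and Fgfr4 3.21), and Fgfr2 measured 283 and 222 CPM in cushion and 33.4 and 26.4 CPM in ventricle. The 4 genes higher in the ventricle were growth factors, Fgf1 -2.62, Fgf7 -1.88*, Fgf13 -1.24* and Nrg4 -0.69*, where Fgf13 acts inside the cell on sodium channels. Erbb3, the neuregulin receptor of cushion mesenchyme, gave 1.96 ± 0.33 (adjusted p = 0.00725; 0.0618 without ventricle library 2). Erbb4, its myocardial counterpart, had -0.21 ± 0.31 (adjusted p = 0.654). Igf1 (1.62*), Igfbp7 (2.39) and Igfbp3 (0.74*) were higher in the cushion.

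Hedgehog and retinoic acid genes gave 13 of 29 higher in the cushion and none in the ventricle, with a median of 0.69 that was 0.24 after GC and length correction (leave-out series 8, 8, 8 and 5). The retinoid group included the binding proteins Crabp1 3.64* and Crabp2 2.60*, the receptors Rarg 2.93, Rxrg 1.75* and Rxrb 0.61* and the degrading enzyme Cyp26b1 (2.57*). Aldh1a2, which makes retinoic acid, had -0.67 ± 0.31 (adjusted p = 0.153). Hedgehog members were Dhh 2.34, Boc 2.62, Gli1 2.18*, Smo 1.08, Cdon 0.84* and Disp1 0.69*. Ptch1, a receptor that is itself a target, had 0.03 ± 0.21 (adjusted p = 0.922).

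VEGF, TIE and PDGF genes gave 5 of 20 higher in the cushion and 3 in the ventricle (median 0.32, leave-out series 4, 4, 5 and 2 for the cushion and 2, 3, 2 and 2 for the ventricle, leave-out medians 0.17, 0.32, 0.46 and 0.20, GC-corrected median 0.10). Both PDGF receptors were higher in the cushion, Pdgfrb at 179 and 111 against 38.6 and 22.9 CPM (2.24 ± 0.47, adjusted p = 0.021; 0.0937 without cushion library 1, 0.0516 without cushion library 2 and 0.0954 without ventricle library 2), together with Figf 3.76, Pdgfb 1.75* and Pgf 1.48, where Figf encodes VEGF-D. Angpt1, the myocardial ligand of TIE2, was higher in the ventricle at 72.4 and 91.4 CPM in cushion and 217 and 271 CPM in ventricle, with -1.57 ± 0.20 (adjusted p = 0.00167). So were Vegfb -0.89 and Pdgfa -0.86*. Vegfa and its receptor Kdr had 0.06 and -0.21 (adjusted p = 0.847 and 0.603).

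Guidance molecules gave 23 of 62 higher in the cushion and 6 in the ventricle (leave-out series 13, 14, 20 and 8 for the cushion and 1, 3, 3 and 4 for the ventricle, GC-corrected counts 18 and 10). The median of 0.76 was 0.30 after GC and length correction. The Slit receptors Robo1 and Robo2 were higher in the cushion (1.99 ± 0.46 and 3.24 ± 0.77, adjusted p = 0.0282 and 0.0331; for Robo1 0.112 without cushion library 1 and 0.123 without ventricle library 2; for Robo2 0.15 without cushion library 1, 0.0864 without cushion library 2 and 0.108 without ventricle library 2). Their ligand Slit2 was higher in the ventricle at 129.8 and 121 CPM in cushion and 523 and 272 CPM in ventricle, with -1.67 ± 0.39 (adjusted p = 0.0258; 0.118 without cushion library 1, 0.14 without cushion library 2 and 0.0726 without ventricle library 1). The same held for the netrin receptors Unc5b 1.86 and Unc5c 3.48* and the ligand Ntn1 (-1.57*), although the ligand Ntn4 was higher in the cushion (2.85). Unc5b measured 321 and 318 CPM in cushion and 103 and 72.7 CPM in ventricle. Among semaphorins Sema5b 3.65*, Sema7a 3.32, Sema3f 1.80 and Sema6c 1.79* were higher in the cushion and Sema3a -1.27, Sema3e -1.69* and Sema4d -1.22* in the ventricle. The Eph receptors Epha3 2.22, Ephb2 2.08, Epha4 0.97 and Ephb4 0.68* were higher in the cushion.

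Genes of the AV canal, the sinus region and the atrium gave 15 of 23 tested higher in the cushion and 1 in the ventricle (median 1.16, leave-out series 13, 8, 10 and 6 for the cushion). Tbx2 and Tbx3, the repressors that keep AV canal myocardium from becoming chamber, measured 26.9 and 35.6 against 2.89 and 1.69 CPM and 66.6 and 41.9 against 5.67 and 2.43 CPM, with 3.77 ± 0.30 and 3.74 ± 0.47 (adjusted p = 0.000409 and 0.00342). Cacna1g, a T-type calcium channel of pacemaker and conduction cells, measured 30.4 and 28.4 CPM in cushion and 2.51 and 1.79 CPM in ventricle, with 3.77 ± 0.23 (adjusted p = 0.000179). All 3 genes were separated and kept their call without any 1 wild type library. The pacemaker channel Hcn4 gave 0.88 ± 0.25 (adjusted p = 0.0374; 0.211 without cushion library 2, 0.0784 without ventricle library 1 and 0.215 without ventricle library 2).

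Markers of the atrial chamber were less uniform. Sln, the atrial calcium pump inhibitor sarcolipin, measured 3.66 and 11.9 CPM in cushion and 0.695 and 0.370 CPM in ventricle, with 3.87 ± 1.06 (adjusted p = 0.0483; 0.0644 without cushion library 1, 0.197 without cushion library 2, 0.101 without ventricle library 1 and 0.17 without ventricle library 2). Myl7 and Myh6, the atrial myosin light chain and alpha heavy chain, had 0.89 ± 0.28 and 0.73 ± 0.41 without a call (adjusted p = 0.0506 and 0.238). Myl4 had -0.38 (adjusted p = 0.331). Cushion library 2 exceeded cushion library 1 for Sln, Myl7 and Shox2. Other members higher in the cushion included Nr2f1 2.31*, Adm 1.73*, Stard10 1.48*, Tbx5 0.71* and Dkk3 0.59*. The summed level of the list was 4674 and 6882 CPM in cushion and 5774 and 5138 CPM in ventricle. How much atrial wall each cushion dissection held was not tested.

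Among genes of the ventricular myocardium, Myl2, the ventricular regulatory light chain, measured 3374 and 2733 CPM in cushion and 6839 and 8311 CPM in ventricle, with -1.31 ± 0.31 (adjusted p = 0.0209; 0.067 without cushion library 1, 0.118 without cushion library 2, 0.0544 without ventricle library 1 and 0.136 without ventricle library 2). Pln, phospholamban, the inhibitor of the sarcoplasmic calcium pump, measured 545 and 362 CPM in cushion and 1594 and 2353 CPM in ventricle, with -2.12 ± 0.25 (adjusted p = 0.00134). Gja1, connexin 43 of ventricular gap junctions, measured 196 and 246 CPM in cushion and 740.3 and 845 CPM in ventricle, with -1.84 ± 0.28 (adjusted p = 0.00428). The tissues did not overlap for these genes, and the calls of Pln, Gja1 and Hey2 held in all 4 fits. Other chamber markers higher in the ventricle were Slit2 -1.67*, Hopx -1.35*, Myl3 -0.99*, Ldb3 -0.90*, Smyd1 -0.72*, Irx4 -0.64* and Lbh -0.52*. The trabecular and secretory genes Nppa, Nppb, Gja5 and Cited1 had values of -2.31 ± 0.77, -1.66 ± 0.82, -1.70 ± 0.57 and -1.86 ± 0.58 without a call (adjusted p = 0.0815, 0.199, 0.0839 and 0.0697). Nppa, the natriuretic peptide of atria and trabeculae, measured 242 and 335 CPM in cushion and 1295 and 1565 CPM in ventricle. Fhl2, a LIM-domain protein, was among the 2 chamber markers higher in the cushion (0.56*).

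Sarcomere and Z-disc genes gave 19 of 40 higher in the ventricle and 1 in the cushion, with a median of -0.70 (leave-out series 4, 4, 6 and 4 for the ventricle). Smpx, a small muscle protein of the costamere, measured 205 and 156 CPM in cushion and 608 and 882 CPM in ventricle, with -2.04 ± 0.38 (adjusted p = 0.0124; 0.055 without cushion library 1, 0.0827 without cushion library 2 and 0.0703 without ventricle library 2). It was followed by Tnnt1 -1.79*, Lmod3 -1.63*, Xirp2 -1.39*, Mypn -1.34* and Nebl -1.18. Thick and thin filament genes Myl3 -0.99*, Tnnt2 -0.93*, Myom1 -0.76* and Mybpc3 -0.56* were called at lower values. The most abundant ones were not: Ttn measured 29510 and 12550 CPM in cushion and 70720 and 15180 CPM in ventricle, with -1.03 ± 1.03 (adjusted p = 0.509). Myh7 had -0.83 ± 0.34 (adjusted p = 0.108) and Actc1 -0.84 ± 0.27 (adjusted p = 0.0509). Ventricle library 2 lay below cushion library 1 for Ttn. Myom2, an M-band protein, was the single member higher in the cushion at 12.4 and 15.3 CPM in cushion and 2.51 and 1.0 CPM in ventricle, with 2.98 ± 0.48 (adjusted p = 0.00658).

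The promoters of 4 called sarcomere genes are shown because they hold letters matching muscle factor elements that few promoters hold within the same 250 bases. Of 33 sarcomere genes with an entry, 5 held the MEF2 consensus, against 1.72% of all 10373 promoters, and 6 held a CArG box, the serum response factor consensus, against 1.19%. The letters CATTCC, the MCAT element of TEAD factors, were in 11 of the 33 and in 11.2% of all. The GATA letters AGATAA were in 6 of the 33 and in 6.23% of all, the T-box letters GGTGTGA in 2 and in 2.82%. The letters TATAAA were in 4 and in 6.64%, which together with the 2 elements given with the WNT and BMP genes makes 8 motifs searched. The 33 include genes that were not called. Of 18 calcium handling genes with an entry, 1 held the MEF2 consensus and 0 held a CArG box. Among all genes called for the ventricle 2.43% held MEF2 and 1.53% a CArG box, and among those called for the cushion 1.23% and 1.08%. A TATA-like core and the MEF2 or CArG consensus can share letters. Mybpc3, cardiac myosin binding protein C, measured 1564 and 1618 CPM in cushion and 2553 and 2147 CPM in ventricle, with -0.56 ± 0.17 (adjusted p = 0.0422; 0.188 without cushion library 1, 0.175 without cushion library 2, 0.182 without ventricle library 1 and 0.0965 without ventricle library 2). Myoz2, a Z-disc calcineurin binder, measured 101 and 84.0 against 143 and 194 CPM, with -0.87 ± 0.26 (adjusted p = 0.0465; 0.108 without cushion library 1, 0.211 without cushion library 2, 0.0582 without ventricle library 1 and 0.236 without ventricle library 2). Myl3, the ventricular essential light chain, measured 582 and 559.6 CPM in cushion and 1059 and 1204 CPM in ventricle, with -0.99 ± 0.24 (adjusted p = 0.023; 0.0911 without cushion library 1, 0.108 without cushion library 2, 0.0602 without ventricle library 1 and 0.14 without ventricle library 2). Myom1, an M-band protein, measured 940.3 and 1072 against 1818 and 1594 CPM, with -0.76 ± 0.21 (adjusted p = 0.0311; 0.158 without cushion library 1, 0.0965 without cushion library 2, 0.131 without ventricle library 1 and 0.108 without ventricle library 2). All 4 were higher in both ventricle libraries than in either cushion library. Capitals mark MEF2 in Mybpc3 and Myoz2, starting 90 and 33 bases before the start, and the CArG box in Myl3 and Myom1, starting 85 and 99 bases before it.
Mybpc3 (chr2:91117894-91118143, plus strand): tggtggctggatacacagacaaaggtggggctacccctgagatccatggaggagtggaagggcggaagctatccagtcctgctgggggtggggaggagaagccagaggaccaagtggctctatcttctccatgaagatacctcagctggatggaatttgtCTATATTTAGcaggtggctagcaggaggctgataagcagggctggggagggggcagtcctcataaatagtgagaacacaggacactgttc
Myoz2 (chr3:123034988-123035237, minus strand): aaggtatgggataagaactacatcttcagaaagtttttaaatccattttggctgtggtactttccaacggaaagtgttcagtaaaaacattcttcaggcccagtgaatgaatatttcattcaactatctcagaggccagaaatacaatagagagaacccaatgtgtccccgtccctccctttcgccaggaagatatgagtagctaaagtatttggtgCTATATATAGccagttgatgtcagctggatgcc
Myl3 (chr9:110763428-110763677, plus strand): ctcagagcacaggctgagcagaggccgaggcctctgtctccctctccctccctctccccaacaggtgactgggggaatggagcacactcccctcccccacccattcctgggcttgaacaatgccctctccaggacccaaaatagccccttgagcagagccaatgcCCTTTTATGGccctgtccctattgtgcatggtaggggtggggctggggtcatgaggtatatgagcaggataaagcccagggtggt
Myom1 (chr17:71019307-71019556, plus strand): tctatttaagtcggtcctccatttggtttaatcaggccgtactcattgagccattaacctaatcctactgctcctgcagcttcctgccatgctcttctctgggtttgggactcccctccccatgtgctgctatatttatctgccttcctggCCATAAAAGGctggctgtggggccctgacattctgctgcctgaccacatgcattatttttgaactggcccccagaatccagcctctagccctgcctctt

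Calcium handling genes gave 10 of 27 higher in the ventricle and 3 in the cushion (median -0.62, leave-out series 7, 6, 7 and 6 for the ventricle). Besides Pln these were Trdn -1.5, Jph1 -1.32, Hrc -1.21, Camk2a -1.04, Camk2d -1.03, Cacna2d1 -0.86*, Srl -0.81*, Slc8a1 -0.79* and Cacnb2 -0.62*. Trdn encodes triadin of the release complex and Slc8a1 the sodium-calcium exchanger. Slc8a1 measured 2637 and 2583 CPM in cushion and 5126 and 3911 CPM in ventricle. The release channel Ryr2 and the pump Atp2a2 had -0.81 ± 0.46 and -0.62 ± 0.20 without a call (adjusted p = 0.241 and 0.0515). The members higher in the cushion were Sln and the calcium channel subunits Cacna2d2 2.10 and Cacna1d 1.51*. Cacna2d2 measured 249 and 232 CPM in cushion and 71.7 and 40.5 CPM in ventricle.

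Channels and gap junctions had no common direction, with 5 of 27 higher in the cushion, 4 in the ventricle and a median of -0.03 that was -0.43 after GC and length correction (leave-out series 5, 4, 3 and 3 for the cushion and 3, 2, 2 and 3 for the ventricle, leave-out medians 0.16, -0.41, -0.07 and -0.12, GC-corrected counts 5 and 9). Calls for cushion and ventricle made up 18.5% and 14.8% of this list, beside 12.46% and 10.65% of all genes tested. Those higher in the ventricle included the potassium channels Kcnd2 -2.05 and Kcnq1 -0.86* and the connexin Gja1. Kcna5 and Kcnj2 were higher in the cushion (2.05 ± 0.29 and 0.68 ± 0.14, adjusted p = 0.00308 and 0.0108; for Kcnj2 0.0746 without cushion library 1, 0.055 without ventricle library 1 and 0.0611 without ventricle library 2). Of all 61 potassium channel genes tested 16 were higher in the cushion and 7 in the ventricle (median 0.55, leave-out series 8, 11, 10 and 5 for the cushion and 3, 2, 3 and 1 for the ventricle, leave-out medians 0.51, 0.36, 0.62 and 0.41, GC-corrected median 0.28). The potassium channel shares were 26.2% for the cushion and 11.5% for the ventricle. Kcnh1, an ether-a-go-go channel, measured 22.5 and 19.5 CPM in cushion and 1.98 and 1.64 CPM in ventricle (3.53 ± 0.48, adjusted p = 0.00364).

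Core cardiac transcription factors were called in both directions, with 7 of 32 higher in the cushion and 11 in the ventricle (median -0.41, leave-out series 5, 3, 6 and 3 for the cushion and 9, 6, 6 and 5 for the ventricle). On the ventricular side were the myogenic factors Mef2c -1.15 and Myocd -1.12, the chamber factors Hey2 -1.39, Hopx -1.35*, Irx4 -0.64*, Irx3 -1.33*, Irx5 -1.88 and Prox1 -1.14 and the metabolic regulators Ppargc1a -0.85* and Esrrg -0.89*. Mef2c measured 100 and 116 CPM in cushion and 238 and 243 CPM in ventricle, with -1.15 ± 0.14 (adjusted p = 0.00175). Myocd, the serum response factor coactivator myocardin, measured 63.9 and 71.0 against 167 and 127 CPM, with -1.12 ± 0.16 (adjusted p = 0.00266). Factors expressed throughout the heart did not pass: Nkx2-5 had -0.11, Srf -0.07, Mef2a -0.10 and Hand2 0.41 (adjusted p = 0.842, 0.903, 0.662 and 0.179). The median was -0.70 after GC and length correction and -0.41, -0.44, -0.15 and -0.57 in the 4 fits without a library.

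Genes of oxidative metabolism were called in one direction. Of 37 genes of fatty acid and oxidative metabolism 20 were higher in the ventricle and none in the cushion, with a median of -0.68 (leave-out series 6, 6, 12 and 7). Lpl, the lipase that releases fatty acids from lipoproteins, measured 180.5 and 158 CPM in cushion and 407 and 360.4 CPM in ventricle, with -1.18 ± 0.17 (adjusted p = 0.00271). Idh3a, a subunit of the citrate cycle isocitrate dehydrogenase, measured 209 and 231 CPM in cushion and 429 and 489.5 CPM in ventricle, with -1.06 ± 0.17 (adjusted p = 0.00422). Sdha, the flavoprotein of succinate dehydrogenase, measured 408 and 460.3 CPM in cushion and 835 and 855 CPM in ventricle, with -0.96 ± 0.16 (adjusted p = 0.00498). The groups did not overlap for these enzymes. Others were the fatty acid carrier Fabp3 (-0.93*), the transferases Cpt1b and Cpt2 (-0.83* and -0.72), the dehydrogenases Acadm -0.80*, Acadl -0.85*, Hadhb -1.08* and Etfdh -0.83* and the regulators Ppara -1.02* and Ppargc1a -0.85*. Cpt1a, the fetal and liver transferase, had 0.27 ± 0.12 (adjusted p = 0.125).

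**Figure D5:**
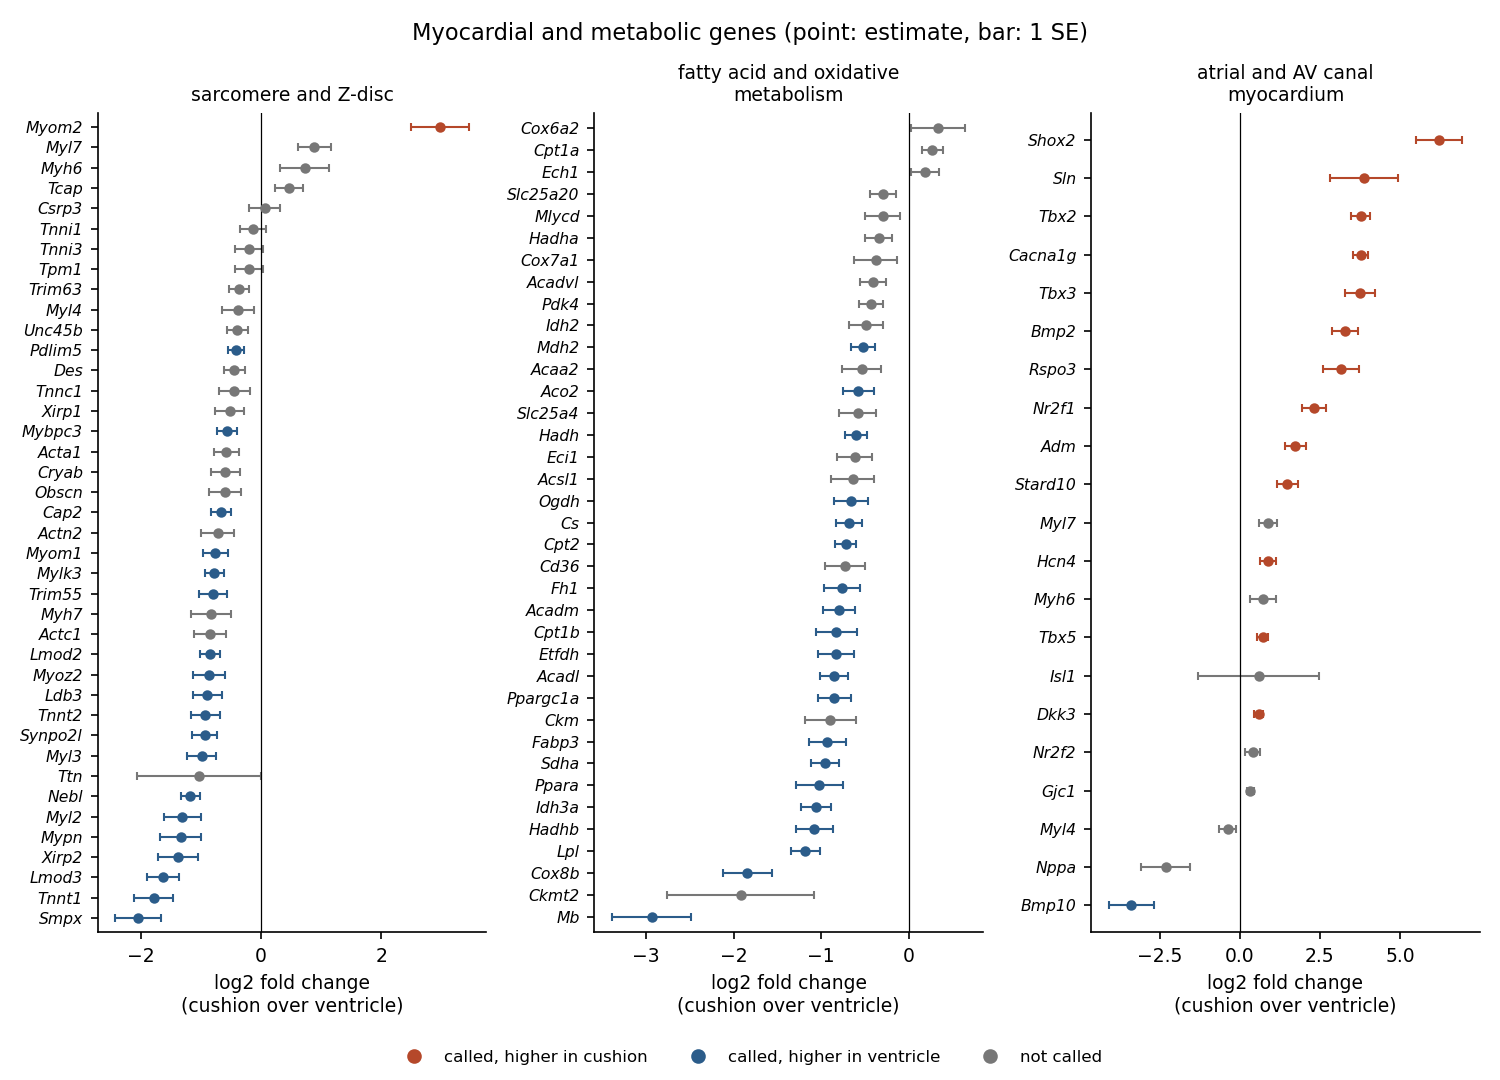
Log2 fold change of cushion over ventricle for tested members of 3 lists, where points are estimates, bars 1 SE, red called higher in the cushion, blue called higher in the ventricle and grey not called. Sarcomere and metabolic genes lie mostly left of 0, and AV canal genes mostly right of it, with Bmp10 the blue point among the latter.

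Respiratory chain genes were called mostly for the ventricle. Of 37 nuclear genes of complex I 16 were higher in the ventricle and none in the cushion (median -0.53, leave-out series 4, 5, 13 and 3). Of 30 genes of complexes II to IV 11 were higher in the ventricle and 1 in the cushion (median -0.56, leave-out series 2, 3, 10 and 2 for the ventricle). Of 17 genes of ATP synthase 7 were higher in the ventricle and none in the cushion (median -0.66, leave-out series 2, 4, 5 and 1). Ndufb6, a complex I subunit, measured 46.2 and 50.8 CPM in cushion and 92.7 and 135 CPM in ventricle, with -1.23 ± 0.20 (adjusted p = 0.00428). Atp5j, a coupling subunit of ATP synthase, measured 96.1 and 103 against 183 and 210.2 CPM, with -0.99 ± 0.15 (adjusted p = 0.00366). Cox4i2, the hypoxia-responsive isoform of a cytochrome oxidase subunit, was the single member called for the cushion at 9.06 and 7.88 CPM in cushion and 2.08 and 0.739 CPM in ventricle, with 2.58 ± 0.44 (adjusted p = 0.00591). Mitochondrial ribosomal proteins gave 22 of 75 higher in the ventricle and none in the cushion (median -0.35, leave-out series 1, 1, 13 and 0, leave-out medians -0.30, -0.41, -0.45 and -0.18). The mitochondrial chaperones Hspd1 -1.07*, Hspa9 -0.95* and Hspe1 -0.88* were among 13 of 65 heat shock and co-chaperone genes higher in the ventricle, against 1 in the cushion (median -0.16, leave-out series 3, 4, 13 and 2 for the ventricle).

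Of 29 glycolytic and hypoxia-responsive genes 5 were higher in the cushion and 1 in the ventricle, with a median of -0.15 that was -0.34 after GC and length correction (leave-out series 3, 4, 4 and 0 for the cushion and 0, 0, 0 and 0 for the ventricle, GC-corrected counts 4 and 9). The cushion side held Adm 1.73*, Egln3 1.47*, Ndrg1 1.0*, P4ha1 0.66* and Slc2a1 0.59*, and the ventricle side Ldhb (-0.67*). Slc2a1, the glucose transporter GLUT1, measured 264 and 281 CPM in cushion and 192 and 169.6 CPM in ventricle. Ldha and Pkm2 had -0.04 and 0.10 (adjusted p = 0.89 and 0.715). Of 233 solute carriers 43 were higher in the cushion and 23 in the ventricle (median 0.15, leave-out series 23, 19, 24 and 10 for the cushion and 9, 12, 20 and 5 for the ventricle, GC-corrected counts 28 and 35, GC-corrected median -0.01). Those calls were 18.5% and 9.87% of the solute carriers, beside 12.46% and 10.65% of all genes tested.

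Endocardial genes were called in both directions. Of 30 tested 10 were higher in the cushion and 5 in the ventricle (median 0.48, leave-out series 6, 6, 6 and 3 for the cushion and 3, 4, 5 and 3 for the ventricle, leave-out medians 0.28, 0.58, 0.63 and 0.37, GC-corrected counts 9 and 8, GC-corrected median 0.30). Towards the cushion were Wnt9b 4.13, Wnt4 2.71, Hapln1 2.42*, Heyl 1.74*, Gata5 1.65, Klf4 1.05*, Tgfb2 1.01*, Gata4 0.77*, Edn1 0.74* and Hey1 0.69*. Towards the ventricle were Emcn -2.04*, Gpr126 -1.5, Npr3 -1.36*, Plvap -1.32 and Prox1 -1.14. Npr3, the natriuretic peptide clearance receptor of the trabecular endocardium, measured 198 and 261 CPM in cushion and 591 and 587 CPM in ventricle, with -1.36 ± 0.25 (adjusted p = 0.00829; 0.055 without cushion library 1 and 0.062 without ventricle library 2). Emcn, the sialomucin endomucin, measured 38.0 and 47.9 CPM in cushion and 154 and 199 CPM in ventricle, with -2.04 ± 0.45 (adjusted p = 0.0236; 0.133 without cushion library 1, 0.11 without cushion library 2 and 0.0901 without ventricle library 2). Wnt4, a ligand of cushion endocardium, measured 20.4 and 23.5 CPM in cushion and 3.90 and 2.80 CPM in ventricle. The tissues were separated for all of these, in opposite directions. Klf2, a shear stress factor of endocardium, had 0.53 ± 0.36 (adjusted p = 0.313). Nfatc1, the calcineurin-dependent factor of valve endocardium, measured 35.9 and 22.1 CPM in cushion and 18.5 and 7.87 CPM in ventricle, with 1.14 ± 0.60 (adjusted p = 0.223). Neither passed the test. Among 16 Kruppel-like factors 2 were higher in the cushion (Klf4 1.05* and Klf3 0.61*) and 1, Klf14, in the ventricle (leave-out series 1, 1, 1 and 0 for the cushion and 0, 1, 1 and 0 for the ventricle). Edn1, which encodes endothelin-1, measured 16.4 and 19 against 9.89 and 11.2 CPM, on the side opposite to the receptor Ednrb.

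Among 31 genes shared by all endothelium 1 was higher in the cushion (Ramp2 0.49*) and 3 in the ventricle (Emcn -2.04*, Mmrn2 -1.04* and Gpr182 -0.95*), with a median of -0.12 (leave-out series 0, 0, 1 and 0 for the cushion and 0, 2, 1 and 1 for the ventricle, leave-out medians -0.08, -0.14, 0.04 and -0.08, GC-corrected counts 1 and 10). Pecam1 measured 224 and 249 CPM in cushion and 218 and 212 CPM in ventricle, with 0.14 ± 0.14 (adjusted p = 0.527). Cdh5 measured 145 and 140.4 against 197 and 134 CPM, with -0.21 ± 0.20 (adjusted p = 0.47). The shares called were 3.23% and 9.68%, below the 12.46% and 10.65% of all genes tested. The summed level of the list was 2302 and 2299 CPM in cushion and 2575 and 2351 CPM in ventricle. Of 21 genes of coronary and capillary endothelium 6 were higher in the cushion and none in the ventricle (median 0.50, leave-out series 2, 3, 4 and 3, GC-corrected median 0.28). Cxcr4, a chemokine receptor, measured 28.8 and 25.4 CPM in cushion and 3.31 and 3.06 CPM in ventricle, with 3.08 ± 0.18 (adjusted p = 0.000179). Aqp1, a water channel of endocardium and other endothelium that stands on none of the endothelial lists, measured 236 and 225 CPM in cushion and 24.7 and 17.3 CPM in ventricle, with 3.45 ± 0.29 (adjusted p = 0.000545).

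Markers of other cell types were low or mixed. Of 21 epicardial markers 6 were higher in the ventricle (Msln -1.93*, Gpm6a -1.61*, Lrrn4 -1.51*, Bnc1 -1.40*, Upk1b -1.26* and Krt19 -0.72*) and 3 in the cushion (median -0.47, leave-out series 2, 2, 2 and 2 for the cushion and 4, 8, 5 and 0 for the ventricle). The 3 were Tcf21 and Scx, which also mark cushion mesenchyme, and Dmkn, dermokine, which rested on 32 cushion reads and 2 ventricle reads, a ratio of CPM of 12.9 (95% counting interval 3.30 to 111). The defining factors Wt1 and Tbx18 were not called (-0.47 ± 0.16 and -0.36 ± 0.19, adjusted p = 0.0684 and 0.2). The list summed to 519 and 558 CPM in cushion and 722 and 744 CPM in ventricle. Of the epicardial markers 14.3% were called for the cushion and 28.6% for the ventricle, beside 12.46% and 10.65% of all genes tested. Smooth muscle and mural markers gave 4 of 19 higher in the cushion (Myh11 2.64*, Pdgfrb 2.24*, Notch3 1.72* and Kcnj8 1.05*) and 2 in the ventricle (Acta2 -0.89* and Abcc9 -1.70). The median was 0.43 (leave-out series 1, 0, 2 and 0 for the cushion and 1, 2, 2 and 1 for the ventricle, GC-corrected median 0.20) and the summed level 2225 and 2343 CPM in cushion and 2651 and 2780 CPM in ventricle. The mural shares called were 21.1% for the cushion and 10.5% for the ventricle.

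Neural crest, glial and neuronal markers gave 8 of 20 higher in the cushion and 1, Ednrb, in the ventricle (median 1.04, leave-out series 5, 5, 5 and 3 for the cushion, leave-out medians 0.98, 1.10, 1.82 and 1.01). Sox10, a factor of neural crest and Schwann cells, rested on 65 cushion reads and 1 ventricle read, a ratio of CPM of 52.5 (95% counting interval 9.10 to 2110). Ngfr, the low affinity nerve growth factor receptor, gave 2.71 ± 0.38 (adjusted p = 0.00281). Phox2a, a factor of autonomic neurons, had -0.20 (adjusted p = 0.688). The list summed to 249.6 and 249.8 CPM in cushion and 539.9 and 590.4 CPM in ventricle, and in ventricle Ednrb made up most of the sum. The part of such cells in the neuronal genes among the highest fold changes towards the cushion was not tested.

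Red cell markers had a wide spread between libraries of 1 tissue. The erythroid list summed to 2252 and 1103 CPM in cushion and 7588 and 3030 CPM in ventricle and had a median of -1.23. Of 19 markers 1 was called for the cushion (Epor 1.41*) and 1 for the ventricle (Tfrc -0.82*; leave-out series 0, 1, 0 and 0 for the cushion and 1, 0, 1 and 0 for the ventricle, leave-out medians -2.0, -1.10, -0.70 and -1.78). Each was 5.26% of the erythroid markers, below the 12.46% and 10.65% of all genes tested. Hbb-y, the embryonic beta-like globin, measured 1562 and 634 CPM in cushion and 5805 and 2015 CPM in ventricle, with -1.83 ± 0.94 (adjusted p = 0.213). Its cushion library 1 lay below ventricle library 2, and the near-identical adult globin pairs have the same counts in the table, so they cannot be told apart. Of the leukocyte and platelet markers 8.33% were called for the cushion, below the 12.46% of all genes tested. Leukocyte and platelet markers gave 2 of 24 called for the cushion (Csf1r 0.67* and Gp1bb 1.07*) and none for the ventricle (median 0.34, leave-out series 1, 0, 1 and 0 for the cushion, summed level 237 and 279 CPM in cushion and 234 and 228 CPM in ventricle, leave-out medians 0.59, 0.18, 0.45 and 0.42).

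Imprinted genes stood on both sides, with 5 of 34 higher in the cushion, 7 in the ventricle and a median of -0.08 (leave-out series 2, 1, 2 and 1 for the cushion and 3, 4, 3 and 2 for the ventricle, GC-corrected median -0.21). Mest, an imprinted gene of the hydrolase family, measured 1069 and 1406 CPM in cushion and 4524 and 5512 CPM in ventricle, with -2.02 ± 0.38 (adjusted p = 0.0102; 0.0675 without cushion library 1 and 0.0698 without ventricle library 2). Cdkn1c, the cyclin-dependent kinase inhibitor p57, measured 205 and 221 CPM in cushion and 747 and 888 CPM in ventricle, with -1.94 ± 0.21 (adjusted p = 0.000964). Plagl1, a zinc finger regulator of imprinted genes, measured 142 and 100.1 against 486 and 332 CPM, with -1.76 ± 0.39 (adjusted p = 0.0226; 0.0711 without cushion library 1, 0.126 without cushion library 2, 0.0705 without ventricle library 1 and 0.0551 without ventricle library 2). These were separated towards the ventricle. H19 and Igf2 had -0.06 ± 0.23 and -0.27 ± 0.21 (adjusted p = 0.867 and 0.365). Nnat, neuronatin, was higher in the cushion (1.39 ± 0.19, adjusted p = 0.00247). Calls for cushion and ventricle made up 14.7% and 20.6% of the imprinted genes, beside 12.46% and 10.65% of all genes tested.

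Cell cycle genes gave 9 of 43 higher in the ventricle (Cdkn1c -1.94, Ccne2 -0.98*, Rrm2 -0.93, Ccne1 -0.78*, Ccna2 -0.75*, Ccnb1 -0.71*, Bub1 -0.59*, Cdt1 -0.54* and Kif11 -0.47*) and 1, Ccnd1, in the cushion, with a median of -0.19 (leave-out series 5, 2, 8 and 3 for the ventricle, GC-corrected counts 1 and 19, GC-corrected median -0.31). Mki67, the proliferation marker Ki-67, measured 949 and 705 CPM in cushion and 1216 and 668 CPM in ventricle, with -0.19 ± 0.36 (adjusted p = 0.745). Immediate early genes gave 9 of 22 higher in the cushion and none in the ventricle (median 0.70, or 0.44 after GC and length correction, leave-out series 6, 4, 5 and 2), as in Egr2 2.46*, Socs3 2.36*, Ier3 1.29, Fosl2 1.19 and Fos 0.87*. Egr1 and Jun were not called (0.93 and 0.55, adjusted p = 0.361 and 0.0506). Fosl2, an AP-1 subunit, measured 60.8 and 59.6 CPM in cushion and 27.9 and 24.9 CPM in ventricle.

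Among other families, 18 of 67 protocadherins were higher in the cushion and 1, Pcdh7 (-1.63), in the ventricle (median 0.93, leave-out series 2, 11, 6 and 1 for the cushion), and members of the clustered protocadherins share exons. Pcdh18 measured 231 and 151 CPM in cushion and 57.6 and 48.0 CPM in ventricle, with 1.85 ± 0.25 (adjusted p = 0.00265). LIM-domain genes of the PDLIM and FHL families gave 7 of 13 higher in the cushion and 2 in the ventricle (median 0.56, leave-out series 4, 2, 5 and 1 for the cushion, GC-corrected counts 5 and 0, GC-corrected median 0.33). Pdlim3, an actinin-associated protein, measured 723 and 564 CPM in cushion and 173 and 126 CPM in ventricle (2.10 ± 0.25, adjusted p = 0.00165). Small nucleolar RNAs gave 14 of 80 higher in the ventricle and none in the cushion, and their median of -0.81 was -0.22 after GC and length correction (leave-out series 1, 6, 5 and 3, GC-corrected counts 0 and 6). Cytosolic ribosomal protein genes gave 8 of 79 higher in the ventricle and none in the cushion (median -0.18, leave-out series 0, 0, 8 and 0, leave-out medians -0.14, -0.23, -0.30 and -0.04, GC-corrected counts 2 and 9, GC-corrected median -0.07), and reads of many of them are shared with processed copies. Replication-dependent histones, also near-identical copies, gave 4 of 60 higher in the cushion and none in the ventricle (median 0.46, leave-out series 2, 0, 0 and 0, leave-out medians 0.68, 0.19, 0.53 and 0.40). The ribosomal protein share of 10.1% and the histone share of 6.67% lay below the 10.65% and 12.46% of all genes tested in those directions. The other 27 families examined had medians between -0.47 and 1.27.

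Reference genes set the scale for small differences. Of 16 housekeeping genes 2 were higher in the cushion (Actb 1.15 and Gusb 0.37*) and 4 in the ventricle (Sdha -0.96, Ppia -1.18*, Hprt -0.83* and Tfrc -0.82*), with a median of -0.10 (leave-out series 1, 1, 1 and 1 for the cushion and 3, 1, 4 and 1 for the ventricle). Actb measured 2444 and 2576 CPM in cushion and 1093 and 1170 CPM in ventricle, with 1.15 ± 0.18 (adjusted p = 0.00412). Eef1a1 measured 5172 and 4911 against 4734 and 5479 CPM, with -0.02 ± 0.18 (adjusted p = 0.949). Xist and Y-linked transcripts were both counted in every library. Xist, of the inactive X chromosome, measured 331 and 145 CPM in cushion and 477 and 229 CPM in ventricle. The Y-linked Ddx3y measured 71.9 and 75.5 CPM in cushion and 85.1 and 90.5 CPM in ventricle. Among the 5 X inactivation and Y-linked genes 1, Eif2s3y (-0.68 ± 0.20, adjusted p = 0.0406; 0.157 without cushion library 1, 0.108 without cushion library 2, 0.0634 without ventricle library 1 and 0.211 without ventricle library 2), was called for the ventricle (median -0.25, or 0.03 after GC and length correction, leave-out series 0, 0, 0 and 0 for the ventricle, leave-out medians -0.36, -0.09, -0.12 and -0.22).

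The same tissue difference in the mutant libraries is given side by side, without a test of the difference between genotypes. Of the genes called for the wild type cushion 1751 of 1861 (94.1%) had a positive value in the mutant comparison, with a median of 0.76 beside 1.14 in wild type. Of those called for the ventricle 1400 of 1591 (88.0%) had a negative value, with a median of -0.39 beside -0.78. The direction in wild type chose these genes, so the wild type medians are a description. The share with the same sign was not computed over all genes tested, so 94.1% and 88.0% have no background beside them. Wnt9b had 3.75 in the mutant and 4.13 in the wild type comparison, Postn 3.21 and 3.38, Pln -1.32 and -2.12, and Bmp10 -2.35 and -3.38.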

How the data were processed

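RNA of AV cushions and ventricles was sequenced, and the authors deposited 1 table of raw read counts per gene with a column for each of the 8 libraries. Per the submitters' processing notes Bowtie 0.12.7 and the build mm9 were used. The sources used here do not give the counting program, its annotation or its use of strand. The 28644 rows were reduced to 1 for each of 22869 symbols by taking the row with the most counts (3705 symbols had several rows). Counts were normalized by TMM and tested in edgeR 4.0.16 (R 4.3.3) with quasi-likelihood fits over all 8 libraries in 4 groups, after edgeR's filter on low counts by group. The wild type contrast was two-sided with Benjamini-Hochberg adjustment over all genes tested, and CPM values use the TMM-scaled totals. Libraries of 1 group differed by more than sampling noise (chi-square per degree of freedom 51.4 for cushion and 97.3 for ventricle) and were counted separately.

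Named genes are the 20 with the highest fold changes in each direction among called genes with separated tissues and a mean of at least 5 CPM in the higher tissue, without predicted genes and small RNAs, up to 6 members with the smallest p of each list or family, and Klf2, Nfatc1 and Wnt9b. A further 195 genes were chosen after their values were seen. Some genes that these rules name are not reported here, but stay in the counts of their lists. The members and the 40 gene lists and 47 families were chosen with earlier results of these data known. Alternatives were DESeq2 1.42.0, limma-voom (limma 3.58.1), RLE normalization, no filter, summed rows, the wild type libraries alone, correction for transcript GC content and length, a replicate block, and each library left out. Promoters came from RefSeq (GRCm38.p6) by symbol. Ratios of genes with at most 3 reads in a tissue have exact 95% intervals that cover counting error only.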

Additional observations from a re-analysis of the deposited data

How the results depend on the processing

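No named gene that was called changed direction under any alternative tried. The fits with DESeq2, limma-voom, RLE normalization, no filter on low counts, rows summed per symbol, or the wild type libraries alone called between 1696 and 1957 genes for the cushion and between 1546 and 1692 for the ventricle. Correction for GC content and length called 1548 and 2071. The replicate numbers are shared by all groups, and the deviations of the libraries from their group means correlated across tissues (r = 0.435 across genes), but no label explains the numbers, and 2 of them are too few to establish a pairing. With the replicate block 3171 genes were called for the cushion and 3009 for the ventricle, with the block and the wild type libraries alone 3331 and 3084, and with the block and GC and length correction together 2429 and 3734. With the block 73 named genes without a call passed the test, among them Sox9, Tbx20, Fn1, Vcan, Col1a1, Col1a2, Col3a1, Fbn1, Fbn2, Notch1 and Nfatc1 towards the cushion and Wnt5a, Myh7, Actc1, Atp2a2 and Wt1 towards the ventricle, and Bmp10 and Sln no longer did. Leaving out 1 library at a time gave from 474 to 1932 genes for the cushion and from 265 to 1678 for the ventricle, and the low ends are fits without a wild type library, which leave 1 library in that group assumed to vary like the others. List medians that moved under GC and length correction, given without and then with the replicate block, were -0.43 and -0.43 for channels and gap junctions, -0.70 and -0.70 for core cardiac transcription factors, -0.34 and -0.35 for glycolysis, 0.42 and 0.41 for collagen enzymes, 1.34 and 1.36 for mesenchymal transcription factors, 0.88 and 0.89 for WNT ligands, -0.049 and -0.045 for Notch genes, 0.24 and 0.24 for hedgehog and retinoic acid genes, 0.30 and 0.29 for guidance molecules, -0.010 and 0.027 for integrins and laminins, 0.44 and 0.42 for immediate early genes, 0.030 and 0.026 for X inactivation and Y-linked genes, 0.95 and 0.93 for collagens, -1.71 and -1.75 for Iroquois factors, 0.42 and 0.41 for GATA factors, -0.22 and -0.21 for small nucleolar RNAs, 0.33 and 0.32 for PDLIM and FHL genes and 0.39 and 0.40 for sulfotransferases. With limma-voom the median of the neural list was 1.53. Leaving out 1 library moved list medians over the ranges 2.42 to 3.17 for cushion mesenchyme, 0.85 to 1.86 for elastic fibre, 0.56 to 1.24 for Sox factors, -1.78 to -0.82 for Iroquois factors, -0.41 to 0.16 for channels and gap junctions, -0.57 to -0.15 for core cardiac transcription factors, 0.98 to 1.82 for neural crest, glia and neurons, 1.04 to 1.55 for WNT ligands, 0.30 to 0.73 for BMP and TGF-beta ligands and receptors, -0.067 to 1.0 for integrins and laminins, 0.98 to 1.82 for collagens and -0.45 to -0.18 for mitochondrial ribosomal proteins. Pkm2, at 0.10 without a call, was called for the ventricle at -0.34 with the replicate block and GC and length correction together. The cause was not tested. Depth limits genes with few reads, for which ratios with counting intervals are given.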
